A study of Mus musculus with 12 samples.

Results

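Smcp encodes the sperm mitochondria-associated cysteine-rich protein, and it was taken here as a gene of fetal liver because its signal was strongly lower in Ppara-/- than in Ppara+/+ livers while it belongs to no known lipid pathway. It was selected on these measured signals. It was matched by its symbol to 1 probeset, 10499906, and is 1 of 19938 genes measured in 12 livers. The difference between the genotypes and the correlations of Smcp with other genes within each genotype were used to choose it, so both are given below as descriptions without a test. Whole livers were collected by cesarean section at E19.5, the last day of pregnancy, from 6 Ppara-/- and 6 Ppara+/+ fetuses, with 1 array per liver. Heterozygous parents were mated so that litters held both genotypes. The labels give the strain as SV129, whereas the methods name a C57BL/6 background. Ppara is deleted in the whole animal in this line, and no agent was given to either group. Each genotype drew on fewer litters than livers according to the methods, so that some fetuses were littermates, and the labels do not say which. A whole liver holds several cell types, and in such tissue fewer cells of a type and less RNA per cell cannot be told apart.

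PPARα, the product of Ppara, is a nuclear receptor activated by fatty acids. It binds DNA together with RXR at direct repeats of the half-site AGGTCA spaced by a single base, and in hepatocytes it drives genes of mitochondrial, peroxisomal and microsomal fatty acid oxidation. Smcp is best known from the testis. Its messenger RNA is stored in round spermatids and translated late, and the protein lies on the outer membranes of the mitochondria that wrap the sperm midpiece, where it supports motility. The gene lies in the epidermal differentiation complex, a cluster of genes for proteins of the cornified skin surface.

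The annotated promoter of Smcp is shown because the deleted gene encodes a transcription factor. The sequence below is the 250 bases before the RefSeq start of Smcp, on the minus strand of GRCm38.p6 at chr3:92589074-92589323, with the stretch nearest to a direct repeat of the receptor's kind in capitals.
Smcp: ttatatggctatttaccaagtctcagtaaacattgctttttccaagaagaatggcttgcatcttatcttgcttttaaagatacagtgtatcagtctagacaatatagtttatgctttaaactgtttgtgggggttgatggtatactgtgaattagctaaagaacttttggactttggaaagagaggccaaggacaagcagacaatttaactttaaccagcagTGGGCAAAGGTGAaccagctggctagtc
The letters AGGTCANAGGTCA were searched on both strands. The nearest stretch, TGGGCAAAGGTGA, differed at 3 of the 12 letters compared and lay from 28 to 16 bases before the start. As few mismatches were found in 21.3% of the 32851 promoters of the same length, so a stretch of this kind is common. Such a match is a description and no binding site, and the arrays do not tell which start the liver transcript uses. An annotated long noncoding RNA, Gm35639, overlaps Smcp on the opposite strand. No probeset carried its symbol.

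Ppara itself checked the genotype labels. Its log2 signal ran from 9.66 to 9.94 in Ppara-/- livers, with a median of 9.85, and from 10.71 to 10.95 in Ppara+/+ livers, with a median of 10.86. The groups did not overlap. The arrays had similar median signals, from 6.71 to 6.75. The first principal component of all genes held 41.9% of the variance, and Ppara-/- mouse 1 and Ppara+/+ mouse 6 stood apart on it toward the other genotype. Ppara+/+ mouse 3 stood apart in a different way, with high signals of the steroid-synthesis genes Star and Cyp11a1. Livers of low Xist and high Y-linked signal were mice 2, 3 and 4 of the Ppara+/+ group and mouse 2 of the Ppara-/- group.

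Smcp gave a clear signal in Ppara+/+ livers and a low one in Ppara-/- livers. In Ppara+/+ livers its log2 signal ranged from 8.46 in mouse 6 to 10.001 in mouse 2, with a median of 9.21. In Ppara-/- livers it ranged from 5.65 in mouse 4 to 6.52 in mouse 1, with a median of 6.06. All Ppara-/- values lay below all Ppara+/+ values and below the array medians. The means were 6.05 ± 0.31 (SD, n = 6) in Ppara-/- and 9.23 ± 0.58 (SD, n = 6) in Ppara+/+ livers. Smcp was thus lower by 3.18 on the log2 scale (difference -3.18, SE 0.23), a 9.07-fold difference. The deposited values carry no detection call, and how much of the Ppara-/- signal is background was not tested.

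**Figure D1:**
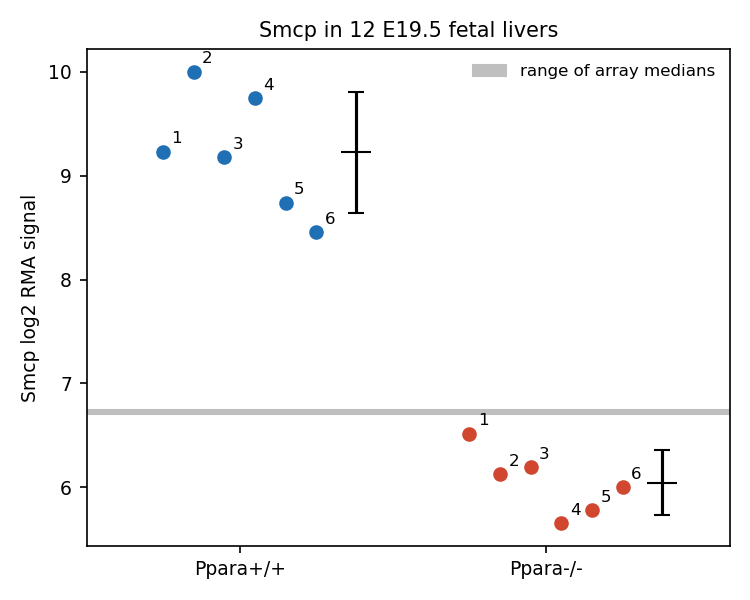
Log2 RMA signal of Smcp (vertical axis) in each of the 6 Ppara+/+ and 6 Ppara-/- fetal livers, with the mouse number beside each point, the mean ± SD as bars and the range of the array medians (6.71 to 6.75) in grey. The Ppara+/+ livers lie between 8.46 and 10.001 and the Ppara-/- livers between 5.65 and 6.52, without overlap.

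The lowest Ppara+/+ and the highest Ppara-/- liver, which are the livers that stood apart on the first component, were 1.94 apart on the log2 scale, or 3.84-fold. Without them Smcp differed by -3.43, a 10.8-fold difference. By the animal numbers of the labels, the 6 livers of lowest number (4 Ppara+/+, 2 Ppara-/-) differed by -3.22 and the 6 of highest number (2 Ppara+/+, 4 Ppara-/-) by -2.69. Smcp signals of the Ppara+/+ livers of high Y-linked signal (10.001, 9.18 and 9.75) overlapped those of the other Ppara+/+ livers (9.23, 8.74 and 8.46) only in that 9.18 lay below 9.23. With a sex score from Xist and Y-linked genes as a covariate, the Smcp difference was -2.99.

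Among all genes the Smcp difference ranked 4 from the lowest, and 11 genes were lower by 2 or more on this scale. All Ppara-/- values lay below all Ppara+/+ values in 456 genes, 2.29% of those measured, and in that order by the gap between the groups Smcp ranked 7. The genes just below it in difference, and so with larger falls, were Cyp4a14 (-3.86), Cyp4a31 (-3.79) and Cyp4a10 (-3.76), cytochromes of the microsomal omega-oxidation of fatty acids. The genes just above it were Acaa1b (-3.01), a peroxisomal thiolase, Vnn1 (-2.90), the pantetheinase, and Rab30 (-2.89), a small GTPase of the Golgi. These values are the order that chose the gene and are given without a test.

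Smcp varied widely within each genotype. In Ppara+/+ livers it varied over a 2.91-fold range and in Ppara-/- livers over a 1.82-fold range. Its SD was larger than that of 99.7% of genes in Ppara+/+ and 98.4% in Ppara-/- livers, where the median gene had an SD of 0.11 in both genotypes. Of the genes next to it in the order of difference, Cyp4a14 ran from 12.46 to 12.94 in Ppara+/+ livers (SD 0.19) and from 8.52 to 9.65 in Ppara-/- livers (SD 0.44), and Acaa1b from 8.34 to 9.83 (SD 0.50) and from 5.88 to 6.37 (SD 0.19). Cyp4a14 was thus the more variable in Ppara-/- and Smcp and Acaa1b the more variable in Ppara+/+ livers. The Ppara-/- signals of Smcp and Acaa1b lay below the array medians, and the part of background in their smaller spread was not tested.

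Within each genotype Smcp followed the main axis of variation among the livers. Its correlation with the first principal component was r = -0.88 (Spearman's rho -0.83) in Ppara+/+ and r = -0.96 (rho -1) in Ppara-/- livers, over 6 livers each. Without the 2 livers of each genotype farthest from its median Smcp level, r was -0.73 and -0.90 over 4 livers each. Smcp was also lower in livers of higher animal number, with r = -0.75 (rho -0.71) in Ppara+/+ and r = -0.81 (rho -0.71) in Ppara-/- livers, and -0.49 and -0.67 without the farthest livers. With the Ppara signal Smcp had r = 0.71 in Ppara+/+ (rho 0.60; 0.40 without the farthest livers) and -0.22 in Ppara-/- livers (rho -0.31; 0.05 without the farthest livers). These correlations are descriptions of 6 livers that share litters, and the part of litter, sex and animal number in the spread of Smcp was not tested.

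**Figure D2:**
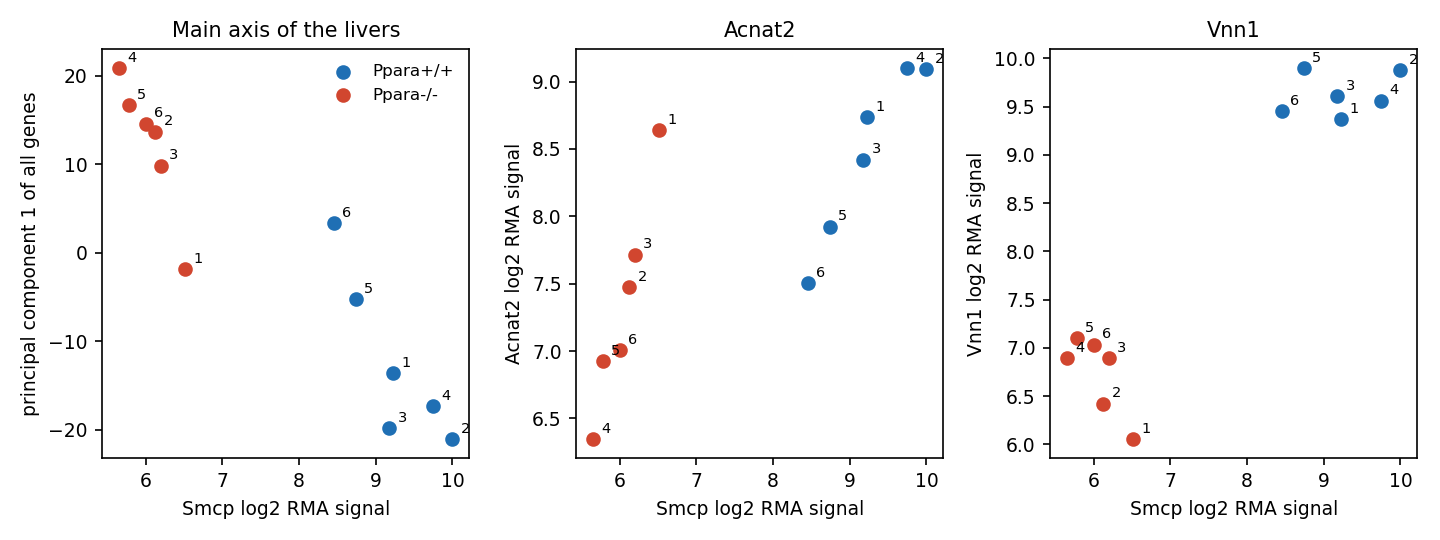
Smcp log2 RMA signal (horizontal axes) against the first principal component of all genes, the Acnat2 signal and the Vnn1 signal (vertical axes, the signals in log2 RMA), with 1 point per liver and its mouse number. Within each genotype Acnat2 follows Smcp (r 0.97 and 0.98), whereas Vnn1 separates the genotypes and follows Smcp less or inversely within them (r 0.25 in Ppara+/+, -0.79 in Ppara-/-).

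The genes whose pattern was most like that of Smcp were named by the smaller of the within-genotype correlations over 6 livers each. Acnat2, an acyl-CoA:amino acid N-acyltransferase of the fatty acid conjugating kind, came first, with r = 0.97 in Ppara+/+ and 0.98 in Ppara-/- livers. Its log2 signal ran from 7.50 to 9.10 (median 8.58) in Ppara+/+ and from 6.34 to 8.64 (median 7.24) in Ppara-/- livers. The genotypes overlapped, and mouse 1 was the highest and mouse 4 the lowest Ppara-/- liver for Acnat2 as for Smcp. Its difference of -1.11 (SE 0.35) did not pass the test over all genes (limma, adjusted p = 0.070). It passed in 6 of 22 alternatives, namely without Ppara-/- mouse 1 (-1.37), without Ppara+/+ mouse 6 (-1.30), with the mouse number as a block (-1.11), with the animal number as a covariate (-1.01), with array weights (-1.33) and with the filter at the 50th percentile (-1.11). Its adjusted p ranged from 0.0084 to 0.187 over the alternatives.

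The other genes most like Smcp were Akap1, an anchor of protein kinase A on the outer mitochondrial membrane, Gpr182, an endothelial receptor, Igfbp4, an IGF-binding protein, Golt1a of Golgi transport, Nectin3 of cell adhesion, Slc17a2, a phosphate transporter, and Nr1h3, which encodes the sterol receptor LXRα. Their r values lay between 0.94 and 0.96 in Ppara+/+ and between 0.93 and 0.97 in Ppara-/- livers. Each of the 8 kept r over 0.8 in both genotypes whichever liver was left out. As the 8 were chosen by this same r, that is a description and no support. Without the 2 livers of each genotype farthest from its median Smcp level, the lowest r of the 8 was 0.78, for Nr1h3 in Ppara-/- livers. Of the 8, 3 were called lower at a limma adjusted p under 0.05, where 3.82% of all genes were. Nectin3 ran from 8.24 to 8.74 in Ppara-/- and from 8.70 to 9.07 in Ppara+/+ livers (difference -0.43, SE 0.08, adjusted p = 0.0048). Akap1 ran from 8.38 to 8.80 and from 8.67 to 8.97 (-0.33, SE 0.07, adjusted p = 0.015). For both genes a single Ppara-/- liver, mouse 1, reached into the Ppara+/+ range. The fall of Nr1h3 (-0.34, SE 0.09, adjusted p = 0.033) was lost with the sex score and without any of Ppara-/- mice 2, 4, 5 and 6 or Ppara+/+ mice 1 to 4, with an adjusted p of up to 0.092. The differences of Gpr182 (-0.28), Igfbp4 (-0.13), Golt1a (-0.22) and Slc17a2 (-0.53) did not pass, with adjusted p from 0.070 to 0.167. They were called in 5, 1, 4 and 5 of 22 alternatives. Array weights were among these for all 4 genes and leaving out Ppara-/- mouse 1 or Ppara+/+ mouse 6 for all but Igfbp4, and Slc17a2 also passed with the mouse number as a block and with the animal number as a covariate. The lowest adjusted p was 0.0057, for Slc17a2 in 1 of these settings.

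At the other end, Xbp1, the transcription factor of the unfolded protein response, Vmn1r228, a vomeronasal receptor of very low signal, Myof, which encodes the membrane repair protein myoferlin, and Rps27l, a ribosomal protein paralogue, were the least like Smcp within both genotypes (r from -0.97 to -0.92). Myof was called higher in Ppara-/- livers (0.70, SE 0.12, limma adjusted p = 0.0034), with values from 8.68 to 9.25 against 8.09 to 8.82. The groups overlapped through Ppara-/- mouse 1 and Ppara+/+ mouse 6. Xbp1 lay between 11.12 and 11.26 in Ppara-/- and between 10.93 and 11.11 in Ppara+/+ livers, without overlap. Its difference of 0.15 (SE 0.05) did not pass (limma adjusted p = 0.067) but was called in 7 of 22 alternatives, with an adjusted p from 0.022 to 0.185, among them those without Ppara-/- mouse 1 or without Ppara+/+ mouse 6. Differences of Vmn1r228 (0.08) and Rps27l (-0.03) did not pass and were called in no alternative run.

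Over all genes, 246 had r over 0.8 with Smcp in both genotypes. Of these, 80 (32.5%) were called lower in Ppara-/- livers, 1 higher and 165 not, beside 3.82% lower and 3.42% higher over all genes, and their median difference was -0.24 beside 0.01 over all genes. Another 164 genes had r under -0.8 in both genotypes. Of these, 52 (31.7%) were called higher and 0 lower by limma, with a median difference of 0.21. The livers that stood apart bear on these counts. Without Ppara-/- mouse 1 the calls were 137 lower of the 246 and 89 higher of the 164, beside 5.75% lower and 6.89% higher over all genes in that fit. Without Ppara+/+ mouse 6 they were 134 and 82, beside 5.67% and 4.25%. Leaving out any other liver gave between 40 and 80 lower, beside 2.24% to 3.83% over all genes, and between 30 and 59 higher, beside 1.93% to 3.14%. The sex score gave 38 and 25 (2.25% and 2.01% over all genes), the animal number as a covariate 131 and 86 (4.78% and 4.43%) and array weights 155 and 89 (7.31% and 6.45%). The genotypes also lie apart on the first component, which Smcp followed within each of them, and its part in these counts was not tested.

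Known PPARα target genes were mostly lower like Smcp but did not always share its pattern among livers. Most genes of this list act in fatty acid oxidation, but it also holds others such as Vnn1, Angptl4 and Fgf21. Of 28 measured, 24 were called lower and 0 higher, beside 3.82% lower and 3.42% higher over all genes, with a median difference of -1.19. In Ppara+/+ livers their median r with Smcp was 0.79, and 14 of them had r over 0.8. In Ppara-/- livers the median r was 0.33, with 6 over 0.8 and 9 below 0. Decr2, a peroxisomal dienoyl-CoA reductase, had r = 0.94 and -0.65, Ech1, an enoyl-CoA isomerase, 0.93 and -0.53, and Acaa1b 0.92 and -0.43, in Ppara+/+ and Ppara-/- livers. In Ppara-/- livers Smcp (5.65 to 6.52) and Acaa1b (5.88 to 6.37) lay below the array medians, and the part of background in r there was not tested. From the list, 4 followed Smcp at r over 0.8 in both genotypes, namely Cyp4a14, Ehhadh, the peroxisomal bifunctional enzyme, Cpt1a, the carnitine palmitoyltransferase of mitochondrial entry, and Acot4, a peroxisomal thioesterase. Whether r differed between the genotypes was not tested.

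Genes of the sperm mitochondria had differences near 0, with a median of -0.01. Of 22 measured genes of the sperm mitochondrial sheath, 1 was called lower and 0 higher by limma, which is close to the 3.82% lower and 3.42% higher over all genes and is no result about this list. The gene called was Cox6b2, the testis form of a cytochrome c oxidase subunit. Its log2 signal ran from 8.42 to 8.77 (median 8.65) in Ppara-/- and from 8.94 to 9.34 (median 9.09) in Ppara+/+ livers, without overlap (-0.49, SE 0.08, limma adjusted p = 0.0019). Within the genotypes Cox6b2 did not follow Smcp upward (r -0.12 in Ppara+/+, -0.75 in Ppara-/-). Vdac3, an outer mitochondrial membrane channel, differed by -0.13, Tssk6, a spermatid kinase, by -0.20 and Pdha2, the testis pyruvate dehydrogenase subunit, by 0.15, and none of these passed.

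Of 48 further spermatid and sperm genes, among them protamines, outer dense fibre and acrosome genes, 0 were called by limma, where 7.24% of all genes were called in either direction, and 1 had an unadjusted p under 0.05. A share of that size would be few genes in a list this short. For an unadjusted p under 0.05 the 7.24% is only a lower bound over all genes, as it comes from the stricter adjusted threshold. The full share was not counted, so counts at an unadjusted p are descriptions without a background. The differences of the 48 lay between -0.18 and 0.19, and 45 of the 48 had a Ppara+/+ mean below the array medians. The largest difference was that of Ldhc, the testis lactate dehydrogenase (0.19, adjusted p = 0.086). Of 19 regulators of transcription and translation in spermatids, 0 were called, beside the same 7.24%, and 2 had an unadjusted p under 0.05, with a median difference of 0.05. Rfx2, a transcription factor of spermiogenesis, differed by 0.25 (adjusted p = 0.055), and Crem, the spermatid activator, by 0.26 (adjusted p = 0.14), both toward a higher signal in Ppara-/- livers. Without Ppara-/- mouse 1, Crem, Rfx2 and Cpeb2 were called higher, beside 6.89% higher over all genes in that fit. In a list this short that count is no result about these regulators. No gene of these 3 lists had r over 0.8 with Smcp in both genotypes.

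**Figure D3:**
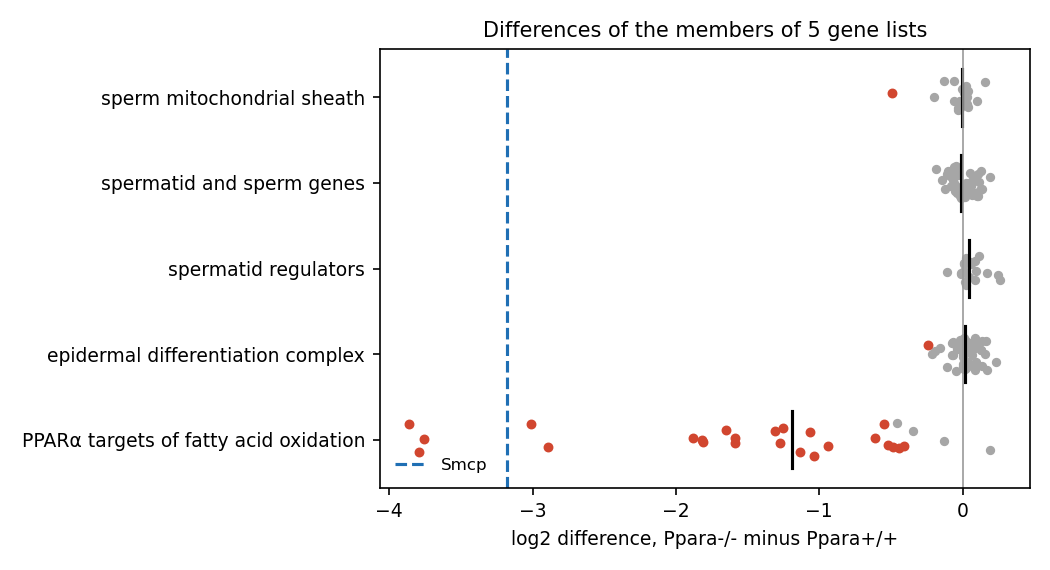
Log2 difference, Ppara-/- minus Ppara+/+ (horizontal axis), of each measured gene of 5 lists (rows), in red where called by limma and in grey where not, with the list median as a black bar and Smcp (-3.18) as a dashed line. The PPARα targets, mostly but not all of fatty acid oxidation, reach from -3.86 to 0.19 around a median of -1.19. The sperm and skin lists lie near 0, with Cox6b2 (-0.49) and S100a10 (-0.24) as the genes called.

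The genes beside Smcp on the chromosome showed no difference of its size. Of its 20 nearest measured neighbours, 10 on each side, 0 were called by limma, beside 7.24% of all genes in either direction. An unadjusted p under 0.05 was found for 1 of the 20. For all genes only a lower bound of 7.24% is known, as their full share was not counted. The differences of the 20 ran from -0.07 to 0.23 with a median of 0.02. Their lowest adjusted p was 0.21, that of Sprr1b, a cornified envelope precursor. The adjacent Ivl, which encodes involucrin, ran from 4.49 to 4.89 in Ppara-/- and from 4.47 to 4.86 in Ppara+/+ livers, and Lce6a on the other side from 4.89 to 5.47 and from 5.12 to 5.49. Both overlapped fully or nearly so, and the group means of all 20 neighbours lay between 3.02 and 6.72. The lowest signal of any probeset was 1.95. Most neighbours thus had little room for a fall like that of Smcp, and whether such a fall extends beyond Smcp cannot be told from them. In the whole epidermal differentiation complex 1 of 59 measured genes was called lower and 0 higher, beside 3.82% lower and 3.42% higher over all genes, so the count does not set the complex apart. It was S100a10, the annexin A2 partner, which differed by -0.24 (SE 0.05, adjusted p = 0.013) with values from 10.59 to 10.86 in Ppara-/- and from 10.82 to 10.99 in Ppara+/+ livers, and which lies outside the 20 nearest genes.

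**Figure D4:**
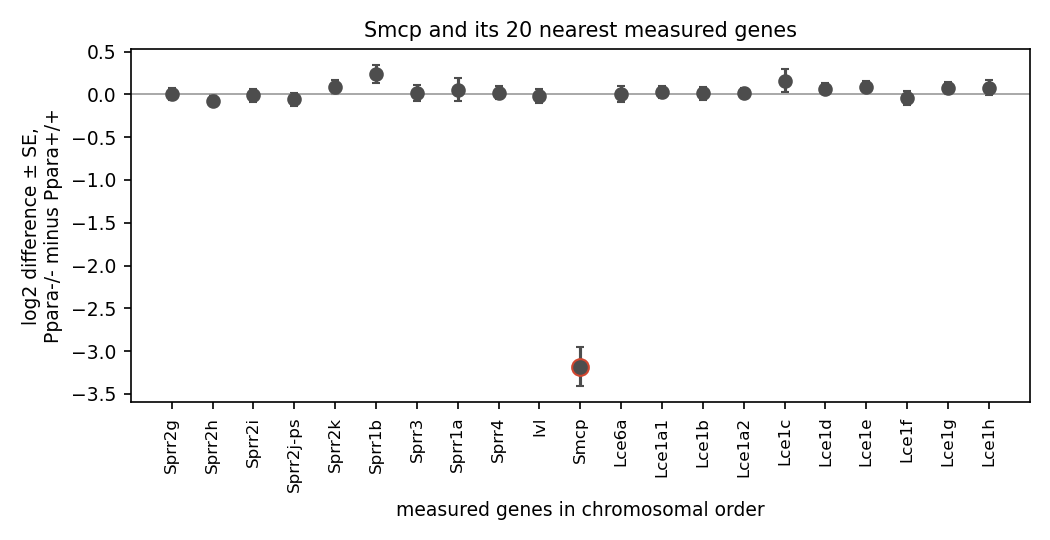
Log2 difference ± SE, Ppara-/- minus Ppara+/+ (vertical axis), of Smcp and its 20 nearest measured genes in chromosomal order (horizontal axis, spacing not to scale). Smcp lies at -3.18, and the neighbours between -0.07 and 0.23.

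Marker genes of the cells of the fetal liver were set beside Smcp. Hepatocyte markers had Ppara+/+ means from 11.4 to 13.6, and 1 of 10 was called lower, where 3.82% of all genes were. In a list this short that count is no result about hepatocyte markers. The gene called was Tat, the tyrosine aminotransferase that rises around birth. Tat ran from 9.17 to 11.72 (median 9.78) in Ppara-/- and from 10.34 to 12.33 (median 12.11) in Ppara+/+ livers, with overlap, and followed Smcp in both genotypes (r 0.84 and 0.92). Its difference of -1.61 (SE 0.42, limma adjusted p = 0.031) was called in 12 of 22 alternatives, with an adjusted p of up to 0.090, and was lost with the sex score, with an intensity trend and without any of Ppara-/- mice 2, 4, 5 and 6 or Ppara+/+ mice 1 to 4.

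The 8 endothelial markers mostly followed Smcp within the genotypes (r below 0 for 0 in Ppara+/+ and 1 in Ppara-/- livers). Their median r was 0.75 in Ppara+/+ and 0.72 in Ppara-/- livers. By limma 0 of the 8 were called, where 7.24% of all genes were in either direction. An unadjusted p under 0.05 was found for 2 of the 8. For all genes only a lower bound of 7.24% is known, as their full share was not counted. The mean log2 signal of the endothelial markers ran from 9.25 to 9.51 in Ppara+/+ and from 9.28 to 9.43 in Ppara-/- livers, so the groups overlapped. The 4 megakaryocyte markers had a median r of 0.74 and 0.77, with 0 called and overlapping means from 10.16 to 10.48 and from 10.19 to 10.49. The part of these cell types in the spread of Smcp was not tested. Erythroid, granulocyte and biliary markers had 0 of 7, 11 and 5 genes called by limma, beside 7.24% of all genes in either direction, a share that would be at most a gene or so in lists of this length. Of 11 macrophage markers 2 were called higher, where 3.42% of all genes were, namely Csf1r (0.23, limma adjusted p = 0.0096) and Cd5l (0.40, limma adjusted p = 0.041). The differences of the 11 ran from -0.25, for Vsig4, to 0.40 with a median of 0.04. In a list this short the count is no result about macrophage markers. Of 10 stellate and mesenchymal markers Des was called lower (-0.39, adjusted p = 0.018), where 3.82% of all genes were, and Reln higher (0.16, adjusted p = 0.034).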

How the data were processed

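Total RNA of 12 whole livers, 6 per genotype, was hybridised to Affymetrix Mouse Gene ST arrays, 1 liver each. The values deposited by the authors are log2 signals from RMA, which corrects background, normalises between arrays and summarises probes to probesets. Neither the RMA version nor a genome build is given in the sources used here. Arrays have no read depth, and their number limits the precision.

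A platform table gave 1 symbol for 21789 probesets, several for 1621 and none for 12146. The probeset of highest mean was kept per gene, leaving 19938 genes without a filter on dim signals. Groups came from the labelled genotype. Differences are Ppara-/- minus Ppara+/+, fitted two-sided with lmFit and eBayes (limma 3.58.1, R 4.3.3) without covariates, and Benjamini-Hochberg adjustment ran over the 19938 genes, with calls at an adjusted p under 0.05. Littermates may not be independent, and p-values measure only the spread between these livers. Correlations, the principal component, promoter search and figures used Python 3.11.15, pandas 2.3.3, numpy 2.4.6 and matplotlib 3.10.9. RefSeq tables of GRCm38.p6 gave gene order and the promoter.

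Named were Smcp, Ppara, the 8 genes most and 4 least like Smcp (no predicted transcripts), 3 genes on each side in the order of difference, up to 6 members per list by p and the 5 nearest neighbours on each side. Smcp and the 14 lists were chosen with earlier results of these data known. Alternatives were other normalizations, filters at the 25th and 50th percentile, the mean of probesets, an intensity trend, array weights, a block for the mouse number, covariates for sex (a score from Xist and Y-linked genes) or animal number, and leaving out each liver. The split by animal number, the omission of both livers that stood apart or of the farthest livers, and the counts of correlated genes under other fits were added after seeing the data. On simulated arrays of 19938 genes the fit for Ppara-/- against Ppara+/+ found 9 of 67 simulated log2 changes of 0.2, 62 of 67 of 0.5 and 65 of 66 of 1, with 5 unchanged genes called. The simulated spread was independent between genes and livers, without a shared axis or litters. These rates may therefore not hold for the livers measured here.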

Additional observations from a re-analysis of the deposited data

Results flagged for a closer look

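In 11 of 216 groups of 6 livers (5.09%), for 108 named genes in both genotypes, the highest or lowest liver lay far from the rest, its gap to the nearest other liver, as a share of the group's whole range, exceeding Dixon's critical value. Chance flags about 1 in 20 groups. Smcp itself was not among them.

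Among the Ppara-/- livers, mouse 1 was the lowest for Myof, at 8.68 against 9.06 to 9.25 in the others (gap 0.661 of the range), for Cd5l, a macrophage gene, at 8.76 against 9.27 to 9.46 (0.726), and for Epcam, a biliary marker, at 6.60 against 6.81 to 6.92 (0.630). Mouse 2 was the lowest for Lce6a, at 4.89 against 5.28 to 5.47 (0.663). Mouse 3 was the highest for S100a10, at 10.86 against 10.59 to 10.67 (0.701). Mouse 5 was the highest for Fgb, a fibrinogen chain, at 13.27 against 13.21 to 13.23 (0.661).

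Among the Ppara+/+ livers, mouse 3 was the highest for Star, at 7.97 against 5.67 to 5.77 (0.953), and for Cyp11a1, at 7.64 against 4.68 to 5.21 (0.820). It was the lowest for Sprr4, at 5.45 against 5.73 to 5.84 (0.699), and for Catsper1, a sperm calcium channel, at 4.11 against 4.31 to 4.42 (0.643). Mouse 1 was the lowest for Epcam, at 6.54 against 6.83 to 6.96 (0.677). Smcp in Ppara+/+ mouse 3 was 9.18, inside the range of its genotype.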

How the results depend on the processing

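The Smcp difference of -3.18 kept its direction in all 25 alternatives and lay between -3.33 and -3.03 whichever liver was left out. It lay furthest from this within the 6 highest animal numbers, at -2.69, a shift larger than the Ppara-/- SD of 0.31 but smaller than the Ppara+/+ SD of 0.58. Whether mouse numbers pair the samples could not be settled. The deviations of same-numbered livers correlated from 0.02 to 0.39, and 2 of 6 pairs were best with their own number. With the mouse number as a replicate block the Smcp difference stayed at -3.18 and the genes called numbered 1619.

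Over all genes 1443 were called, 2743 with array weights, 850 with the sex score and 851 (without Ppara-/- mouse 5) to 2521 (without Ppara-/- mouse 1) with a liver left out. Genes with r over 0.8 numbered 246, 143 (without Ppara+/+ mouse 6) to 406 (without Ppara+/+ mouse 3) with a liver left out, and 143 without the 2 farthest livers per genotype. In the sperm sheath list 1 gene was called, and 2 with the 50th percentile filter or array weights. In the spermatid and sperm list 0 were called, 1 with repeated quantile normalization or the block (Ldhc), and 0 to 1 with a liver left out (1 without Ppara+/+ mouse 3 or 6). Among spermatid regulators 0 were called, 1 with repeated quantile normalization, a median shift, either filter, the trend, the block or the animal number, 2 with array weights, and 0 to 3 with a liver left out (3 without Ppara-/- mouse 1, 1 without Ppara+/+ mouse 6). In the epidermal complex 1 was called, 2 with array weights or the block, and 1 to 2 with a liver left out (2 without Ppara+/+ mouse 5 or 6). The cause of these shifts was not tested. No neighbour of Smcp was called in any of the 22 alternatives run, but the filters removed most or all neighbours before the test. The 25th percentile filter left 3 neighbours and the 50th percentile filter left 0, so the latter could call none. With a liver left out, 24 to 25 PPARα targets were called.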

Other observations

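Of 12 measured markers of neighbouring tissues, 9 had a Ppara+/+ mean below the array medians. By limma 1 was called lower and 1 higher, beside 3.82% lower and 3.42% higher over all genes. In a list this short these counts are no result about neighbouring tissues. Fabp2, the intestinal fatty acid-binding protein, was called lower in Ppara-/- livers, with values from 5.21 to 6.37 against 5.94 to 7.40 in Ppara+/+ livers (difference -1.07, limma adjusted p = 0.0096). The groups overlapped, and Fabp2 had r = 0.62 with Smcp in Ppara+/+ and 0.90 in Ppara-/- livers. Cela1, a pancreatic elastase gene, was called higher, with values from 7.44 to 7.79 against 7.22 to 7.32 (0.33, adjusted p = 0.0043), without overlap.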
